A study of Mus musculus with 62 samples.

Results

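The cell proliferation genes described here are 34 genes of DNA replication and mitosis, followed in the testis, the caput epididymis and the cauda epididymis of adult male mice. They were chosen by gene symbol and not selected on their measured values, though earlier results of these data were known. All 34 were found among the 23845 genes of the deposited TPM table. By role, 11 load or form the replication helicase, 3 belong to the replication clamp and the making of nucleotides, 7 drive or time mitotic entry, 7 act on chromosomes and the spindle, 4 form the spindle checkpoint and 2 serve mitotic exit.

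The study asked how the absence of a microbiota affects the male reproductive tract, and measured RNA by stranded, poly(A)-selected sequencing in 62 libraries, each the tissue of 1 male aged 8 to 14 weeks. SPF mice were C57BL/6 animals of Charles River stock raised with a specific pathogen-free microbiota (3 testes, 4 caputs and 4 caudas). Germ-free mice (GF) were C57BL/6 animals from a colony kept in sterile isolators (4 testes, 6 caputs and 6 caudas). GFxSPF F1 mice were sons of a GF father and an SPF mother bred in conventional housing (3 caputs and 3 caudas), and Rag2-/- mice carried a knockout of Rag2 and so lack mature T and B cells (2 caputs and 3 caudas). Recolonized GF mice descended from germ-free mice, were bred for generations in conventional housing and came from another laboratory (3 libraries a tissue), and were compared with their own controls, SPF set 2 (5 libraries a tissue). GF, F1 and Rag2-/- mice share the same SPF controls. The labels do not say which tissues came from 1 animal, and GF cauda replicate 4, a swollen organ that the study set aside, was left out of the comparisons and is described on its own.

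The number of reads behind a value is not known, because TPM keeps no depth, so the spread between libraries was the only measure of precision. Between 13105 and 18822 genes were above 0 TPM in a library. The tissue labels were borne out by marker lists: the mean log2(TPM + 1) of caput epithelial markers was 11.2 to 11.7 in caput libraries and 0.23 to 4.10 in cauda libraries, and that of meiotic markers was 5.71 to 6.39 in testis libraries and at most 0.64 elsewhere. Rag2 was listed at 0 TPM in every epididymal library of every group, so its level checks no genotype label. Of the 2108 values of the 34 genes, 17 were 0, and 28 genes were above 0 in every library.

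A cell that divides first loads the Mcm2 to Mcm7 helicase onto DNA, fires it in S phase, and then builds a spindle, checks that each chromosome is attached, and destroys its mitotic cyclins to exit. In the adult testis, spermatogonia divide by mitosis and spermatocytes divide by meiosis, which uses much of the same machinery. The adult epididymal epithelium, in which sperm mature, divides little. The samples are whole tissue, so fewer cells of a type and less RNA per cell cannot be told apart.

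Many of these genes are known to be transcribed in phases of the cell cycle through E2F sites, CCAAT boxes and the cell cycle homology region (CHR). The promoters of 4 genes are shown because they carry these letters in different mixtures and because their genes recur in the results. Each line gives the 250 bases before the transcription start, 5′ to 3′ on the strand of the gene, from RefSeq on GRCm38.p6, the assembly known as mm10. Capitals mark CCAAT, the CHR letters TTTGAA, and the E2F letters TTTGGCGC, TTTCCCGC, TTTGCCGC or TTTCGCGC, on either strand.
Mcm6: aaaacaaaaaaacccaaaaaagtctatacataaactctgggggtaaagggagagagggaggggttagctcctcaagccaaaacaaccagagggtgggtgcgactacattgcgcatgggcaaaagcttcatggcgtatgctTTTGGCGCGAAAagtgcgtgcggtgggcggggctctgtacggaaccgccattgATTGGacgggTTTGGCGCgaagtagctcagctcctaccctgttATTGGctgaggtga
Cdk1: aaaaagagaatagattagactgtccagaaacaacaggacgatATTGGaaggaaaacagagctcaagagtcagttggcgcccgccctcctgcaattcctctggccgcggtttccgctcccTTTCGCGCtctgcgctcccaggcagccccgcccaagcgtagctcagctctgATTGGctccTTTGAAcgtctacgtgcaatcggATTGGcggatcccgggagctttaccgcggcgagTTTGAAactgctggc
Top2a: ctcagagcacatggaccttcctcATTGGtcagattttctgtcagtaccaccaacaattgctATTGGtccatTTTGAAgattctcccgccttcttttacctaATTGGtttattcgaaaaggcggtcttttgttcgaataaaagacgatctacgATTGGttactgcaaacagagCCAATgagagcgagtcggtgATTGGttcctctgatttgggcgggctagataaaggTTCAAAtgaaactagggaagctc
Ube2c: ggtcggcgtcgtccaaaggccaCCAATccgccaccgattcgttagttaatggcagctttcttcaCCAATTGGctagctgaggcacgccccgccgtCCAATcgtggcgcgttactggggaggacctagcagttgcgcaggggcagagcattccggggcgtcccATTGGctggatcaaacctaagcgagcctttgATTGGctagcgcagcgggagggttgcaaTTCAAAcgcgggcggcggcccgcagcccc
These windows are Mcm6 at chr1:128359706-128359955, Cdk1 at chr10:69352913-69353162, Top2a at chr11:99024190-99024439, each on the minus strand, and Ube2c at chr2:164769679-164769928 on the plus strand. Mcm6 holds E2F letters and no CHR letters, Top2a and Ube2c hold CCAAT and CHR letters and no E2F letters, and Cdk1 holds all 3 kinds.

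A window from 250 bases before to 50 bases after the start was found for 28 of the 34 genes. CCAAT was in 23 of the 28 (82.1%), against 37.9% of all 27025 promoter windows. The CHR letters were in 14 (50%), against 18.1%, and were found in 12 of the 17 mitotic genes and 2 of the 11 replication genes. The E2F letters were in 7 (25.0%), against 2.32%, and were found in 6 of the 11 replication genes and 1 of the 17 mitotic genes. Matches overlapped each other in 4 genes (Mcm5, Mcm6, Mcm7 and Ube2c), between different kinds of letters in 1 of them. A match of letters is a description of the window and not a measured binding site. Gins1, Gins2, Mcm4, Ccna2, Aurkb and Foxm1 had no window in the table.

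The testis held far more RNA of these genes than the epididymis. The ratio of mean TPM in SPF testis to SPF caput had a median of 11.2 over the 34 genes, and 32 of the 34 means were higher in testis. The ratio to SPF cauda had a median of 7.82. In the SPF set 2 controls the medians were 10.4 and 7.22. Here and below, a gene counted as called when its limma p, adjusted by Benjamini-Hochberg over every gene tested, did not exceed 0.05 and its fold on the log2(TPM + 1) scale reached 1.5. By this rule 31 of the 34 genes were higher in SPF testis than in SPF caput and 1 was lower, where 52.9% of all tested genes were called higher and 27.4% lower. Against SPF cauda, 27 were higher and 1 lower, beside 51.0% and 26.5% of all tested genes. The same contrasts in SPF set 2 gave 30 higher and 1 lower against caput (47.2% and 32.1% of all genes) and 29 higher and 1 lower against cauda (48.4% and 30.3%). The median log2 change from caput to testis was 2.77 for these genes and 0.77 for all tested genes in SPF, and 2.85 and 0.43 in SPF set 2. Scaling each library to the bulk of its genes moved the median of all genes by -0.55 against caput and -0.47 against cauda in SPF, and by -0.21 and -0.33 in SPF set 2. It left 29 and 26 of the genes higher and 2 lower in both SPF contrasts, and 29 and 28 higher and 2 and 3 lower in SPF set 2.

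**Figure D1:**
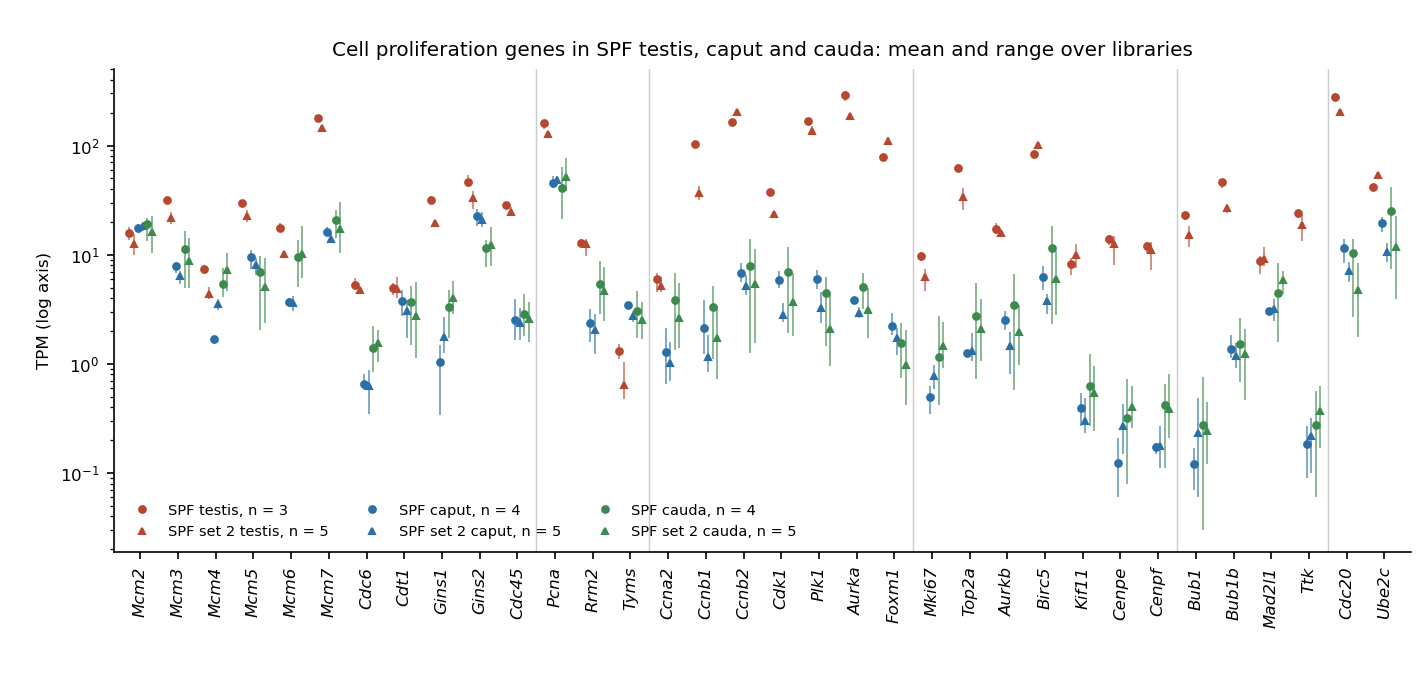
Level of each of the 34 genes in TPM (log axis) in testis, caput and cauda of SPF and SPF set 2 mice, grouped by role, with points at the mean and bars over the lowest to highest library. Testis points lie highest for most genes, with Tyms and Mcm2 as exceptions, and cauda bars are the longest.

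The size of the testis to caput ratio varied with the role of the genes and within each role. The median ratio of testis to caput in SPF was 4.40 for the licensing and helicase genes, 3.55 for the clamp and nucleotide genes, 13.4 for the exit genes, 20.7 for the chromosome and spindle genes, 28.3 for the mitotic entry genes and 82.5 for the checkpoint genes. In SPF set 2 the same medians were 2.80, 2.64, 16.6, 26.8, 38.9 and 43.9. The role groups were not tested against each other, and their ranges overlapped: Mcm5 had means of 30 and 9.46 TPM in SPF testis and caput, and Ube2c, a mitotic gene, 41.5 and 19.4 TPM. A gene near 0 TPM in caput gives a large ratio.

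Among the licensing and helicase genes, Mcm2, Mcm3, Mcm4, Mcm5, Mcm6 and Mcm7 encode the ring that unwinds DNA. Their levels in SPF testis ran from 7.38 ± 0.71 TPM for Mcm4 (SD, n = 3) to 179 ± 4.9 TPM for Mcm7, although the proteins form 1 complex. Mcm2 alone of the 6 was not called between SPF testis and caput, and in SPF set 2 neither Mcm2 nor Mcm4 was called. Mcm2 was 17.9, 15.4 and 13.7 TPM in the 3 SPF testes and 16.6, 15.8, 19.2 and 18.2 TPM in the 4 SPF caputs, which overlap (log2 change -0.15, adjusted p = 0.232). With the scaling above, Mcm2 was called lower in testis. Cdc6 and Cdt1, which load the ring, were among the lowest genes in testis, at 5.27 ± 0.75 and 4.94 ± 0.62 TPM, and Cdt1 was not called against caput (0.33, adjusted p = 0.0567). Gins1, Gins2 and Cdc45, which complete the active helicase, were 31.6 ± 2.6, 46.1 ± 6.9 and 28.3 ± 1.7 TPM in SPF testis and 1.04 ± 0.53, 22.5 ± 3.4 and 2.51 ± 0.99 TPM in SPF caput (n = 4).

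Pcna, the sliding clamp, was the most abundant of the 34 genes in both SPF epididymal regions, at 45.2 ± 5.5 TPM in caput and 40.8 ± 17.8 TPM in cauda. In SPF testis it was at 161 ± 15 TPM. Rrm2, a subunit of ribonucleotide reductase, was at 12.8 ± 1.0 TPM in SPF testis and 2.39 ± 0.68 TPM in SPF caput. Tyms, which makes thymidylate, was the 1 gene of the 34 called lower in testis. It was 1.28, 1.51 and 1.11 TPM in SPF testis and 3.46 ± 0.11 TPM in SPF caput, with no overlap (log2 change -0.96 ± 0.09 SE, adjusted p = 4.75e-06). It was also the lowest gene in testis. Against SPF cauda its log2 change was -0.78 ± 0.24 (adjusted p = 0.0151), a call lost without SPF testis replicate 3 (adjusted p = 0.0581). In SPF set 2 Tyms was called lower in testis against both regions.

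Aurka, a kinase of the spindle poles, was the most abundant of the genes in SPF testis, at 255, 308 and 316 TPM, and lay at 3.6 to 4.11 TPM in SPF caput. Its log2 change was 5.92 ± 0.10, with an adjusted p of 3.6e-11. Cdc20, which activates the ligase that ends mitosis, followed at 258, 304 and 280 TPM. Mcm7 came next, at 173, 182 and 181 TPM. The order differed in SPF set 2 testis, where Ccnb2 (192.15 to 218.09 TPM) and Cdc20 (192.54 to 208.81 TPM) lay above Aurka (173.57 to 191.66 TPM). All 7 genes of mitotic entry were called higher in SPF testis than in caput. Ccnb1 and Ccnb2, the B-type cyclins, were at 103 ± 4.4 and 163 ± 10 TPM in testis and 2.14 ± 1.16 and 6.75 ± 1.26 TPM in caput. Their partner kinase Cdk1 was lower, at 37.2 ± 2.0 TPM in testis. Ccna2, the A-type cyclin of somatic cells, was far lower, at 5.96 ± 1.21 TPM in testis, and was not called against SPF cauda. In SPF set 2 Ccna2 was called higher in testis than in cauda. Plk1, a kinase of mitotic entry, and Foxm1, a transcription factor of the G2/M genes, were at 167 ± 12 and 77.7 ± 3.6 TPM, and changed from caput by 4.61 ± 0.12 and 4.63 ± 0.13 on the log2 scale.

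The chromosome and spindle genes were called higher in SPF testis than in caput in 7 of 7 cases. Top2a, the topoisomerase that untangles sister chromatids, was 67.8, 57.5 and 61.4 TPM in SPF testis and 1.15 to 1.34 TPM in SPF caput (log2 change 4.81 ± 0.09, adjusted p = 6.13e-11). Mki67, the gene of the Ki-67 protein used to count cycling cells, was only at 9.63 ± 0.89 TPM in testis. Birc5 and Aurkb, of the chromosomal passenger complex, were at 84.4 ± 4.9 and 17.3 ± 2.1 TPM. The spindle motor Kif11 and the kinetochore genes Cenpe and Cenpf were at 8.16 ± 1.5, 13.9 ± 1.4 and 12.1 ± 1.4 TPM in testis, with means under 1 TPM in SPF caput and cauda.

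The checkpoint genes Bub1, Bub1b, Mad2l1 and Ttk, which hold mitosis until chromosomes attach, were all called higher in testis than in SPF caput. Bub1 and Ttk were at 22.9 ± 1.9 and 24 ± 2.2 TPM in testis, and at 0.12 ± 0.05 and 0.18 ± 0.07 TPM in caput, so that Bub1 gave the largest ratio of the 34, at 191. Bub1b was at 46.3 ± 4.9 and 1.38 ± 0.33 TPM. Mad2l1 was at 8.69 ± 1.79 TPM in testis and 4.50 ± 2.84 TPM in cauda, and was not called between those. Of the exit genes, Cdc20 is given above, and Ube2c, the ubiquitin-conjugating enzyme of mitotic exit, was at 41.5 ± 2.4 TPM in testis. Ube2c was one of the 3 highest genes in both SPF epididymal regions, at 19.4 ± 2.4 TPM in caput and 24.9 ± 14.2 TPM in cauda, and was not called between SPF testis and cauda. In SPF set 2 its means were 10.6 TPM in caput and 11.8 TPM in cauda, below Pcna, Gins2, Mcm2 and Mcm7 in each. There Ube2c was called higher in testis than in cauda.

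Between the epididymal regions a small number of the genes were called, from replication and from mitosis. In SPF, Mcm4, Mcm6, Gins1, Rrm2 and Ccna2 were higher in cauda and Gins2 was lower, so that 5 of 28 tested genes were called higher and 1 lower, where 21.1% of all tested genes were called higher and 18.4% lower. In SPF set 2, 7 of 29 were higher and 2 lower, beside 23.9% and 26.4% of all tested genes. The same 5 genes were among the 7, with Mad2l1 and Cdc6, and Mcm5 joined Gins2 among the lower ones. The share called higher was near that of all genes, and the share called lower was below it.

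Mcm6 was 13.6, 5.10, 9.54 and 9.66 TPM in SPF cauda replicates 1 to 4 and 3.30, 3.46, 3.88 and 3.99 TPM in SPF caput, with every cauda library above every caput library (log2 change 1.11 ± 0.24, adjusted p = 0.00399). Mcm4, a subunit of the same ring, was 7.61, 4.10, 5.82 and 4.19 TPM in cauda and 1.75, 1.51, 1.69 and 1.76 TPM in caput, again with no overlap (1.23 ± 0.17, adjusted p = 0.00037). Mcm2, another subunit, was 20.5, 13.4, 21.6 and 20.3 TPM in cauda and 16.6 to 19.2 TPM in caput, which overlap. Mcm5, also of the ring, lay at 6.88 ± 3.44 TPM in cauda and 9.46 ± 1.64 TPM in caput. Mcm3 and Mcm7 were at 11.4 ± 4.8 and 20.9 ± 5.1 TPM in cauda and 7.92 ± 0.82 and 16.2 ± 1.2 TPM in caput, and neither was called. The differences between subunits were not tested.

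The GINS genes moved in opposite directions. Gins1 was 4.72, 1.73, 3.65 and 3.10 TPM in SPF cauda and 0.94, 1.41, 1.48 and 0.34 TPM in SPF caput (1.06 ± 0.27, adjusted p = 0.00876). Gins2, whose product sits in the same complex of 4 subunits, was 13.7, 7.70, 11.9 and 12.6 TPM in cauda and 18.4, 24, 26.3 and 21.4 TPM in caput (-0.93 ± 0.19, adjusted p = 0.00279). Neither pair of groups overlapped. In SPF set 2 the changes were 0.86 ± 0.16 for Gins1 and -0.78 ± 0.18 for Gins2, with adjusted p of 0.000411 and 0.00188.

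Rrm2 and Ccna2 were called in both control sets, and Mcm5 in SPF set 2 only, with less room. In SPF their log2 changes were 0.85 ± 0.28 (adjusted p = 0.0295) and 0.98 ± 0.35 (adjusted p = 0.0404). Rrm2 lost its call in 5 of the SPF runs that left out 1 library (adjusted p of 0.0545 to 0.0816), and Ccna2 in 6 (0.0577 to 0.107). Mcm5 (-0.72 ± 0.28 in SPF set 2, adjusted p = 0.0356) lost its call in 7 of the runs without 1 library, among them those without cauda replicate 1, 2 or 4 (adjusted p of 0.0501 to 0.0899). The Mcm4, Mcm6, Gins1 and Gins2 calls held whichever cauda library was left out. The number of genes called higher was 10 without SPF cauda replicate 2, when Birc5, Cdc6, Mcm3, Top2a and Ube2c were added, and 3 without SPF cauda replicate 1 or 3.

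Wider lists of cell cycle genes were counted in the same fits: 36 further genes of origin and fork, 22 of G1 control and 44 of mitosis and cytokinesis. They are read beside the shares of all tested genes, 52.9% higher and 27.4% lower from caput to testis in SPF, and 21.1% and 18.4% from caput to cauda. From SPF caput to testis, 30 of 35 tested origin and fork genes were called higher and 2 lower, the largest rise being that of Chaf1a, a histone chaperone subunit (4.29 on the log2 scale), and the larger fall that of Rpa3, a subunit of the single-strand binding protein (-1.74). Of 43 mitosis genes 39 were higher and 1 was lower, led by Kif2c, a microtubule depolymerase (5.91). The G1 control list had 11 of 21 higher (52.4%, near the share of all genes) and 3 lower: Ccne2, a cyclin of S phase entry, rose by 3.19, while the D-type cyclin gene Ccnd1, its kinase Cdk4, and Myc changed by -3.19, -1.39 and -1.06. From caput to cauda in SPF, 10 of 31 origin and fork genes (32.3%) were higher and 1 lower. Rrm1, which pairs with the Rrm2 product, rose by 1.70 ± 0.24 (adjusted p = 0.000318), and the D-type cyclin gene Ccnd2 and the cell cycle inhibitor gene Cdkn1a rose by 3.01 and 1.87. The G1 list as a whole gave 5 of 18 higher (27.8%) and 1 lower, and the mitosis list 3 of 25 higher (12%) and 2 lower. From caput to cauda in SPF set 2, 12 of 33 origin and fork genes (36.4%), 4 of 18 G1 genes (22.2%) and 7 of 25 mitosis genes (28.0%) were higher. In the same order, 4, 2 and 3 were lower. From caput to testis in that set, 11 of 21 G1 genes were higher and 7 lower (33.3%). The shares of all genes in SPF set 2 are given above.

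Among the control mice, the cauda varied most from animal to animal. The ratio of the highest to the lowest library in a gene had a median of 4.42 in the 4 SPF caudas, 1.5 in the 4 SPF caputs and 1.18 in the 3 SPF testes. Over the 5 SPF set 2 caudas it was 3.62. The coefficient of variation had a median of 46.8% over these genes and 23.8% over all genes in SPF cauda, and of 49.1% and 17.9% in SPF set 2 cauda. In SPF testis it was 8.98% over these genes and 9.52% over all genes. Outside the controls the order of the regions differed by group. Over these genes the median was 22.3% in GF cauda without replicate 4 and 25.9% in GF caput. It was 13.7% in recolonized GF cauda and 18.0% in recolonized GF caput. In F1 it was 22.9% in cauda and 16.4% in caput, and in Rag2-/- 27.9% and 11.9%.

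The variation ran across the genes together. SPF cauda replicate 1 was the highest of the 4 libraries in 30 of the 34 genes and replicate 2 the lowest in 29. The shares of all genes with those positions are not given here. Ube2c was 42.1, 7.36, 23.5 and 26.5 TPM in replicates 1 to 4, Cdk1 11.8, 1.91, 6.88 and 7.07 TPM, and Birc5 18.4, 2.33, 12.2 and 13.3 TPM. In each, replicate 2 stood below the other 3. Mcm2 was the steadiest, at a ratio of 1.62 between highest and lowest, and Bub1 the least steady, at 25.3. The mean log2(TPM + 1) of the 34 genes was 2.92, 1.63, 2.42 and 2.38 in the 4 libraries. The same mean over 12 spermatid and sperm markers was 3.24, 5.22, 4.35 and 1.82, lowest in replicate 4 and highest in the library in which the proliferation genes were lowest. All 12 markers summed to 51.3 to 1543 TPM over the 4 libraries. With each library rescaled without germ cell transcripts (genes at least 10-fold higher in SPF testis than in SPF caput), the means of the 34 genes were 2.94, 1.64, 2.43 and 2.39. Those transcripts include 18 of the 34 genes and held 1.06% to 1.55% of the TPM in the 4 libraries. The rescaling could therefore move the means little in any case, and the part of sperm RNA in the spread of these genes was not tested. In SPF set 2 cauda, replicates 3 and 5 had means of 2.61 and 2.54 and sperm marker means of 4.72 and 4.80, and replicates 1, 2 and 4 had 1.87, 1.92 and 1.62 with 5.39, 5.83 and 5.48.

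**Figure D2:**
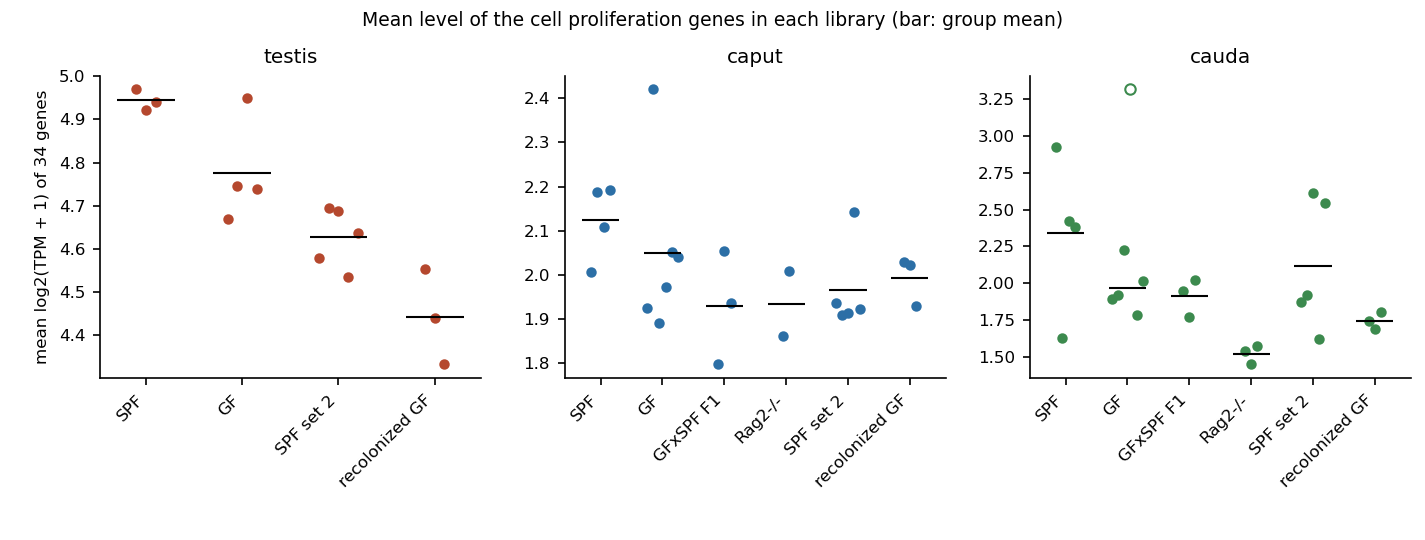
Mean log2(TPM + 1) of the 34 genes in each library by group, in panels for testis, caput and cauda with their own vertical scales; the open circle is GF cauda replicate 4. The SPF and SPF set 2 caudas spread widely, and the 3 Rag2-/- caudas lie together at 1.45 to 1.57.

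In the cauda of germ-free mice, 0 of 28 tested genes were called against SPF, where 0.144% of all tested genes were called in either direction. At an unadjusted limma p under 0.05, 3 were lower and 0 higher, beside 2.59% and 13.1% of all genes. The fitted log2 change was negative in 27 of the 28, with a median of -0.36, where the median of all tested genes was 0.08. Mcm6 was 3.85, 5.11 and 5.88 TPM at the lowest, median and highest of the 5 GF caudas, and 5.10 to 13.6 TPM in SPF (-0.75 ± 0.23, adjusted p = 0.189). Ccnb1 was 0.54, 1.10 and 1.90 TPM in GF and 1.11 to 5.19 TPM in SPF (-0.91 ± 0.30, adjusted p = 0.199), and Ccna2 1.02, 1.24 and 2.33 TPM and 1.35 to 6.82 TPM (-0.90 ± 0.31, adjusted p = 0.211). For each of the 3 the groups overlapped through SPF cauda replicate 2. Without that replicate, Birc5 (-1.27 ± 0.20, adjusted p = 0.0262), Ccnb1 (-1.23 ± 0.22, adjusted p = 0.0442) and Mcm6 (-0.99 ± 0.18, adjusted p = 0.0442) were called lower. It was the lowest SPF cauda for each of these genes, so leaving it out raised their SPF means. The share of all genes called without that replicate is not given here. The sperm markers, all 12 above 0, summed to 1335 to 1834 TPM in these GF caudas, and the 12 macrophage markers to 372 to 4461 TPM, against 242 to 536 TPM in SPF. Their part in the result was not tested.

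In the cauda of Rag2-/- mice, the shift was the largest of the cauda comparisons in its median, but no gene passed the test. With limma, 0 of 28 were called, beside 0.13% of all tested genes, while 15 were lower and 0 higher at an unadjusted p under 0.05, beside 7.15% and 3.38% of all genes. All 28 fitted changes were negative, with a median of -0.81 against -0.06 for all genes. By role, over the tested genes only, the median was -0.64 for the licensing and helicase genes and -0.81 for the clamp and nucleotide genes. It was -0.96 for the chromosome and spindle genes (only Top2a, Aurkb and Birc5 tested) and -0.56 for the checkpoint genes (only Bub1b and Mad2l1 tested). It was -1.19 for the mitotic entry genes and -1.96 for the exit genes. Rrm2 was 1.71, 1.57 and 1.78 TPM in the 3 Rag2-/- caudas and 2.85 to 8.74 TPM in SPF, with no overlap (-1.16 ± 0.29, adjusted p = 0.272). Mcm6 was 4.07, 2.90 and 4.04 TPM against 5.10 to 13.6 TPM (-1.11 ± 0.29, adjusted p = 0.278), and Cdt1 0.96, 0.78 and 1.28 TPM against 1.5 to 5.13 TPM (-1.15 ± 0.30, adjusted p = 0.278). Neither overlapped. In 8 of the 28 genes every Rag2-/- library was below every SPF library, where 9.46% of all tested genes had that order; they were Mcm6, Cdc45, Cdt1, Rrm2, Tyms, Ccnb1, Plk1 and Ube2c. Ube2c was 4.71, 0.00 and 6.29 TPM in Rag2-/- and 7.36 to 42.1 TPM in SPF.

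The lack of calls depended on the fit. The share of all genes called in each alternative fit is not given here, so these counts do not single out the cell proliferation genes. With weights for library quality 6 of the genes were called lower (Ccnb1, Cdc45, Cdt1, Mcm6, Plk1 and Rrm2, adjusted p of 0.0268 to 0.0496). In a single fit of all cauda groups 6 were lower (Cdc45, Mcm6, Plk1, Rrm2, Tyms and Ube2c), and without SPF cauda replicate 2 again 6 were lower (Birc5, Ccnb1, Cdc20, Cdt1, Mcm5 and Mcm6, adjusted p of 0.0128 to 0.0493). That SPF replicate was the lowest SPF cauda in most of the cell proliferation genes. Rag2-/- cauda replicate 2, in which Ube2c, Plk1 and Ccnb2 were listed at 0 TPM, had the fewest genes above 0 of all 62 libraries, and without it the median was -0.87 and no gene was called. The 12 sperm markers summed to 1767 to 3325 TPM in Rag2-/- cauda and 51.3 to 1543 TPM in SPF, and the 7 T cell markers to 2.48 to 3.82 TPM against 5.36 to 8.93 TPM. Their part in the result was not tested.

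**Figure D3:**
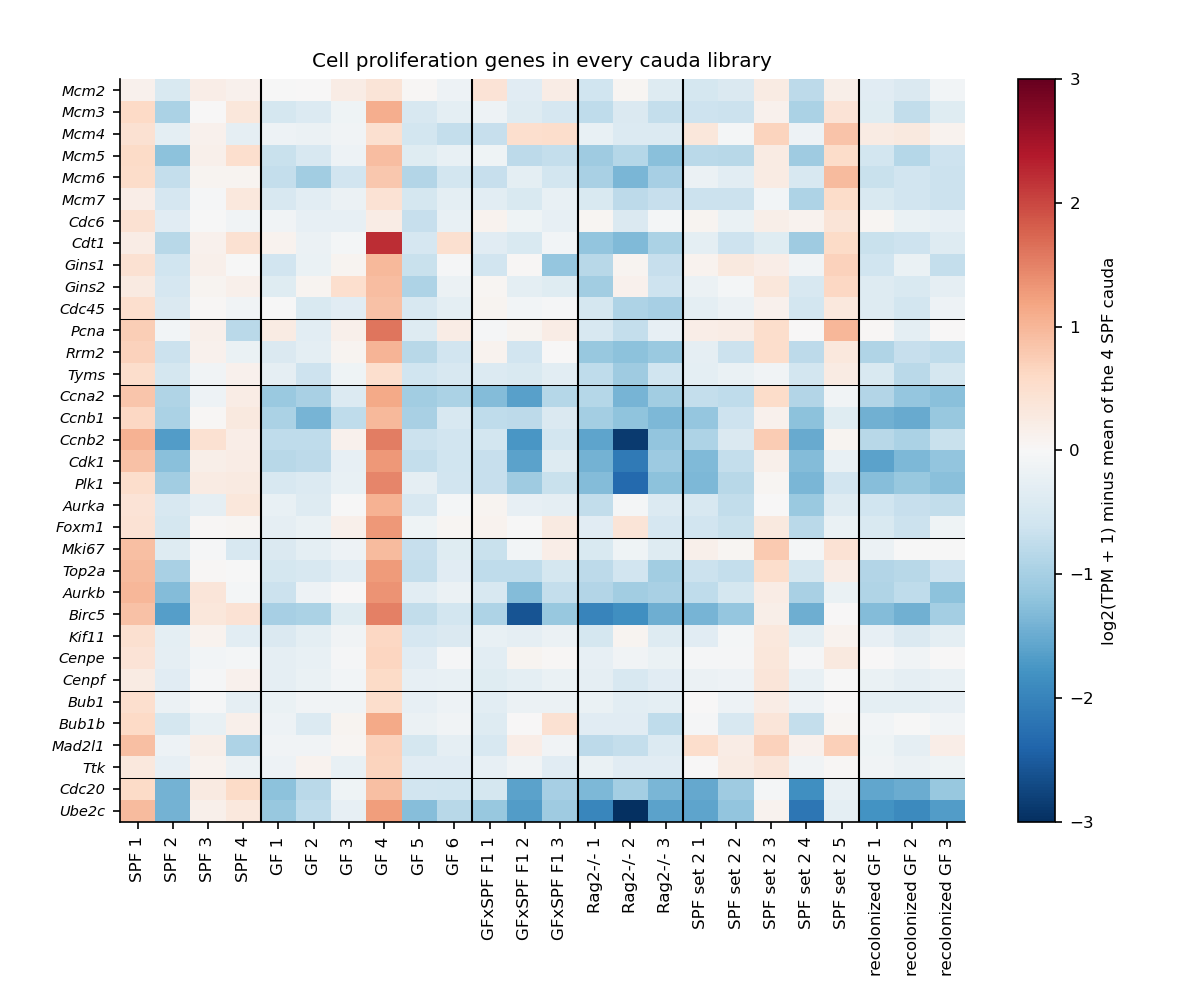
Difference in log2(TPM + 1) of each of the 34 genes from the mean of the 4 SPF caudas, in each of 24 cauda libraries, with colours saturating at the ends of the scale. SPF replicate 2 and the Rag2-/- libraries are low across most genes, and GF replicate 4 is high across most.

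The F1 caudas gave 0 called of 29 tested genes with limma, beside 0.188% of all genes. At an unadjusted p under 0.05, 3 were lower and 0 higher, beside 2.42% and 21.0% of all genes. The median change was -0.35 with 24 of 29 negative, while the median of all genes was 0.28. The scaling moved the median of all genes by -0.29 and that of these genes to -0.65. Ccna2 was 0.80, 0.43 and 1.43 TPM in F1 and 1.35 to 6.82 TPM in SPF (-1.26 ± 0.40, adjusted p = 0.135). Ube2c was 9.13, 5.97 and 9.60 TPM (-1.29 ± 0.51, adjusted p = 0.189) and Birc5 4.50, 0.74 and 3.79 TPM (-1.55 ± 0.66, adjusted p = 0.211). All 3 overlapped with SPF, through SPF replicate 2 for each. A single fit of all cauda groups called 2 of them lower, Birc5 (adjusted p = 0.0422) and Ccna2 (adjusted p = 0.0216). The share of all genes called in that fit is not given here.

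Recolonized GF caudas, read against SPF set 2, gave 0 called of 28 with limma, beside 0.323% of all genes, and 6 lower and 0 higher at an unadjusted p under 0.05, beside 10.1% and 5.53%. The median change was -0.43 with 27 of 28 negative, and that of all genes was -0.02. Gins1 was 1.74, 2.59 and 1.54 TPM in recolonized GF and 3.44, 4.12, 3.80, 2.86 and 5.73 TPM in SPF set 2, with no overlap (-0.75 ± 0.19, adjusted p = 0.111). Mad2l1 was 3.50, 3.13 and 4.65 TPM against 6.11, 4.77, 7.03, 4.39 and 7.11 TPM (-0.52 ± 0.17, adjusted p = 0.197), and Ccnb1 0.50, 0.42 and 0.83 TPM against 0.81, 1.61, 3.39, 0.73 and 2.14 TPM (-0.71 ± 0.29, adjusted p = 0.287). Both of these overlapped. The sperm markers summed to 1397 to 3191 TPM in recolonized GF cauda and 813 to 2391 TPM in SPF set 2 cauda, and their part was not tested.

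Placed side by side, the 34 group means were below those of the controls in 34 genes for GF cauda without replicate 4, in 34 for Rag2-/- cauda, in 30 for F1 cauda and in 33 for recolonized GF cauda. The first 3 counts use the same 4 SPF libraries and are not independent of each other. The shares of all genes with a lower group mean are not given here, and in SPF cauda the cell proliferation genes varied together. In the same order, the median fitted change of all tested genes was 0.08, -0.06, 0.28 and -0.02. Mcm2 in GF cauda was nearly level, at 18.942 against 18.955 TPM (fitted change 0.016). With replicate 4 kept, some GF means, among them those of Pcna and Cdt1, were above SPF. An interaction term compared the GF change in cauda with that in caput, and 0 of 27 genes were called by limma, beside 0.0881% of all genes, with 2 lower and 0 higher at an unadjusted p under 0.05, beside 2.02% and 9.47%. The lowest adjusted p was that of Gins1 (-0.79 ± 0.29, adjusted p = 0.289). The difference between the GF change and the recolonized GF change, each against its own controls, was called in 0 genes in testis, caput and cauda, beside 0.014%, 0.00816% and 0.00789% of all genes. At an unadjusted p under 0.05 these 3 gave 0, 2 (1 higher and 1 lower) and 0 genes. The shares of all genes at that p were, for testis, 4.53% higher and 1.1% lower, for caput, 2.71% higher and 6.57% lower, and for cauda, 3.4% higher and 0.781% lower. The lowest adjusted p was 0.891 in testis, 0.525 in caput and 0.997 in cauda.

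**Figure D4:**
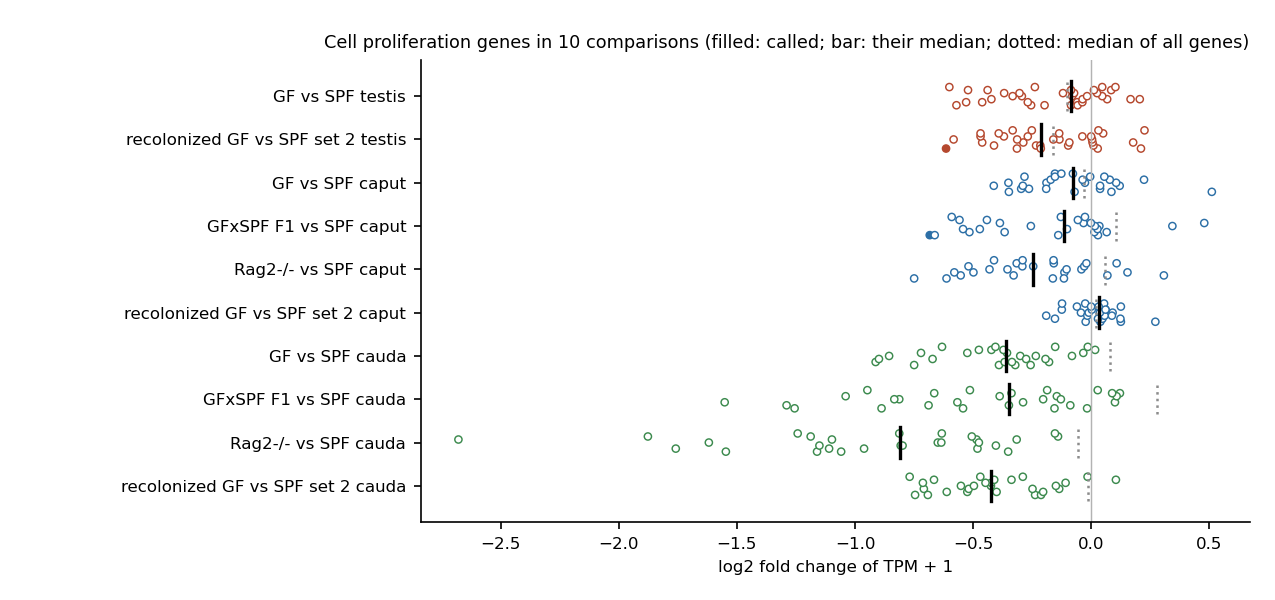
Log2 change of each tested cell proliferation gene in 10 comparisons of a group with its controls, by tissue; filled points are called genes, bars are the medians of these genes and dotted lines the medians of all tested genes. In the cauda the bars lie below the dotted lines for GF, F1, Rag2-/- and recolonized GF.

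GF cauda replicate 4 stood apart from every other library of its group. It was the highest of the 6 GF caudas in 34 of 34 genes, above all 4 SPF caudas in 31 and above all 23 other caudas in 27. The shares of all genes in these positions are not given here, so the counts do not single out these genes. Its level was 3.68 times the mean of the other 5 GF caudas in the median gene, from 1.30 times for Mcm2 to 9.02 times for Ttk. Ube2c was 51.8 TPM there, Cdt1 19.5 TPM, Birc5 28.9 TPM and Pcna 118 TPM, against highest values of 17.8, 5.16, 7.20 and 45.4 TPM in the other GF caudas. Macrophage markers summed to 14454 TPM in this library, T cell markers to 24.1 TPM and B cell markers to 18.7 TPM, the highest of the 6 GF caudas for each. Their part in the result was not tested. With this library kept in the GF group, the median GF change in cauda was -0.17 in place of -0.36.

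In the caput, germ-free mice gave 0 called of 27 with limma, beside 0.348% of all genes, and 2 higher and 3 lower at an unadjusted p under 0.05, beside 6.26% and 10.6%. The median change was -0.08 and that of all genes was -0.03. Gins1 was 1.64, 1.86 and 2.07 TPM at the lowest, median and highest of the 6 GF caputs and 0.94, 1.41, 1.48 and 0.34 TPM in SPF, without overlap (0.51 ± 0.15, adjusted p = 0.149). Mad2l1 was 1.68, 2.31 and 2.91 TPM in GF and 2.80 to 3.27 TPM in SPF (-0.30 ± 0.10, adjusted p = 0.193), and Mcm6 1.29, 2.67 and 3.89 TPM and 3.30 to 3.99 TPM (-0.41 ± 0.17, adjusted p = 0.257). Both overlapped only through GF caput replicate 2, which was the highest GF caput in 27 of the 34 genes. The share of all genes highest in that library is not given here.

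In F1 caput Aurkb was called lower, 1 of 26 tested genes, beside 0.581% of all genes called lower. Aurkb, the kinase of the passenger complex, was 0.93, 1.45 and 1.2 TPM in F1 and 2.02, 2.58, 2.44 and 3.07 TPM in SPF, with no overlap (-0.68 ± 0.13, adjusted p = 0.037). The call was lost in 6 of the 7 runs that left out 1 library (adjusted p of 0.0751 to 0.0969). Mcm6, at 1.90, 2.61 and 2.28 TPM, passed the p threshold but not the fold (-0.52 ± 0.11, adjusted p = 0.042). Every F1 library was below every SPF library in 4 of the 26 genes, Mcm6, Ccnb2, Cdk1 and Aurkb, where 6.11% of all tested genes had that order. The median of these genes was -0.12 and that of all genes 0.11, and the scaling, which moved the latter by -0.11, called Mcm6 lower as well. Of the wider lists, Tk1, the thymidine kinase gene (-0.91 ± 0.19, adjusted p = 0.04), and Cdca3, a trigger of mitotic entry (-0.72 ± 0.17, adjusted p = 0.0492), were called lower.

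Rag2-/- caput, with 2 libraries, gave 0 called of 27 with limma, beside 0.159% of all genes, and 1 higher and 10 lower at an unadjusted p under 0.05, beside 12% and 6.29%. The median change was -0.25 with 23 of 27 negative, and that of all genes 0.06. Ube2c was 9.5 and 12.8 TPM in Rag2-/- and 16.3, 22.1, 19.5 and 19.6 TPM in SPF (-0.75 ± 0.16, adjusted p = 0.147), Plk1 3.35 and 4.04 TPM against 4.80 to 7.18 TPM (-0.55 ± 0.15, adjusted p = 0.182), and Ccnb2 3.74 and 4.56 TPM against 5.66 to 8.43 TPM (-0.58 ± 0.16, adjusted p = 0.183). None of these groups overlapped. Both Rag2-/- libraries were below every SPF library in 12 of the 27 genes, Mcm2, Mcm3, Mcm5, Mcm7, Gins2, Tyms, Top2a, Ccnb2, Cdk1, Plk1, Aurka and Ube2c, where 11.3% of all tested genes had that order. Leaving out 1 library moved the median between -0.30 and -0.14.

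Recolonized GF caput gave 0 called of 27 with limma, beside 0.175% of all genes, and 0 genes at an unadjusted p under 0.05, where 4.03% of all genes were higher and 4.12% lower. The median change was 0.03 and that of all genes 0.02. The 3 genes of lowest p were Aurkb (2.15, 2.02 and 1.6 TPM against 0.80 to 1.97 TPM, adjusted p = 0.729), Ccnb2 (4.70, 4.52 and 4.31 TPM against 5.17 ± 0.86 TPM, n = 5, adjusted p = 0.8) and Birc5 (3.24 against 3.79 ± 0.68 TPM on average, adjusted p = 0.838).

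In the testis, germ-free mice gave 0 called of 34 with limma, beside 0.0423% of all genes, and 0 higher and 9 lower at an unadjusted p under 0.05, beside 1.7% and 11.8%. The median of these genes was -0.09 with 25 of 34 negative and that of all genes -0.10, and after the scaling the median of these genes was 0.01 with 16 negative. As deposited, the mitotic entry genes had a median of 0.05 and the licensing and helicase genes one of -0.20. The lowest p-values were in the chromosome and spindle genes, with a median of -0.44. Mki67 was 5.75, 6.21, 8.57 and 4.59 TPM in GF and 10.6, 8.78 and 9.57 TPM in SPF, with no overlap (-0.57 ± 0.17, adjusted p = 0.334). Kif11 was 6.61, 4.86, 5.98 and 4.01 TPM against 9.36, 6.48 and 8.65 TPM (-0.53 ± 0.17, adjusted p = 0.334), and Top2a 40.7, 43.8, 60.8 and 41.4 TPM against 67.8, 57.5 and 61.4 TPM (-0.42 ± 0.15, adjusted p = 0.342). Both overlapped through 1 GF library. The 8 spermatogonial markers summed to 147 to 166 TPM in GF testis and 183 to 195 TPM in SPF testis, and the 12 spermatid markers to 78209 to 84150 TPM and 63375 to 69810 TPM. The spermatogonial list also summed to 87.4 to 149 TPM in caput libraries, so its sum is not specific to spermatogonia. The part of these marker lists in the result was not tested.

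Recolonized GF testis gave 1 called gene of 33, Ccna2, which was lower, beside 1.16% of all genes called lower. Ccna2 was 3.54, 2.58 and 3.04 TPM in recolonized GF and 6.20, 4.85, 4.86, 5.55 and 4.58 TPM in SPF set 2, with no overlap (-0.61 ± 0.11, adjusted p = 0.0369). It lost the call in 7 of the 8 runs that left out 1 library, and when libraries were scaled to the bulk of their genes (-0.48, adjusted p = 0.0937). Mcm6, at 8.41, 7.32 and 6.47 TPM against 9.61 to 10.9 TPM, passed the p threshold but not the fold (-0.41 ± 0.09, adjusted p = 0.0473). Every recolonized GF library was below every SPF set 2 library in 8 of the 33 genes, Mcm3, Mcm4, Mcm5, Mcm6, Cdc45, Ccna2, Mad2l1 and Aurkb, where 14.9% of all tested genes had that order. The median of these genes was -0.21 and that of all genes -0.16, and the scaling raised the latter by 0.15 and left these genes at -0.05. Cdkn1b, which encodes a cyclin-dependent kinase inhibitor, was called lower in the G1 list (-0.92 ± 0.11, adjusted p = 0.00983). Spermatogonial markers, whose sum is not specific to spermatogonia as stated above, summed to 127 to 140 TPM in recolonized GF testis and 151 to 200 TPM in SPF set 2 testis. Spermatid markers were at 89289 to 96327 TPM and 78056 to 90076 TPM, and the part of both lists was not tested.

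The 2 control sets themselves differed in these genes. In testis, SPF set 2 was lower than SPF in 9 of 33 genes and higher in 0, where 8.95% of all tested genes were called lower. Ccnb1 was 36.8, 39.2, 42.4, 31.6 and 32.8 TPM in SPF set 2 and 98.7, 107.5 and 103 TPM in SPF, far apart (-1.48 ± 0.10, adjusted p = 2.64e-05). The others were Top2a (-0.88), Bub1b (-0.76), Mcm6 (-0.74), Gins1 (-0.67), Aurka (-0.65), Mcm4 (-0.64), Cdk1 (-0.62) and Bub1 (-0.59), of which Cdk1 and Bub1 lost the call after the scaling. Smooth muscle and stroma markers summed to 111 to 139 TPM in SPF set 2 testis and 280 to 328 TPM in SPF testis. In caput, Mcm4 was higher in SPF set 2, 1 of 27 genes beside 17.7% of all genes, at 3.71, 3.10, 3.31, 3.95 and 3.58 TPM against 1.75, 1.51, 1.69 and 1.76 TPM (0.76 ± 0.08, adjusted p = 0.000211). Cdk1 (-0.85 ± 0.11), Ube2c (-0.81 ± 0.12), Plk1 (-0.71 ± 0.14) and Cdc20 (-0.60 ± 0.15) were lower, 4 of 27 beside 1.3% of all genes, and the scaling, which lowered the median of all genes by 0.19, made this 7. In cauda 0 of 29 were called by limma, beside 0.0874% of all genes, 1 was lower and 0 were higher at an unadjusted p under 0.05 (11.7% and 24.2% of all genes), and the lowest p was that of Plk1 (-0.81 ± 0.37, adjusted p = 0.138). The labels name the sets and give no reason for the difference, whose cause was not tested, and recolonized GF mice are read only against SPF set 2.

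The wider lists gave 0 calls in each GF comparison, in F1 cauda, in both Rag2-/- comparisons and in recolonized GF caput and cauda. In Rag2-/- cauda the median change was -0.37 over the origin and fork list, with 30 of 32 negative, -0.28 over G1 control and -0.52 over mitosis and cytokinesis, with 22 of 25 negative. The same medians were -0.17, -0.02 and -0.24 in GF cauda and -0.22, -0.04 and -0.27 in recolonized GF cauda.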

How the data were processed

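RNA was measured in 62 mouse libraries of 16 groups. The authors made the deposited TPM values with RSEM on the mm10 genome in the Via Foundry platform (versions not given in the sources used here). TPM has the same total in every library, so it keeps no depth, and more of an abundant RNA lowers the values of others. From these, log2(TPM + 1) was fitted per comparison with limma 3.58.1 in R 4.3.3 (lmFit and eBayes) on genes whose mean reached 1 TPM. P-values were adjusted by Benjamini-Hochberg across every gene tested, and the thresholds, taken from the study, were 0.05 for the adjusted p and 1.5 for the fold. The fits were tested on simulated data. Fold changes on this scale understate those of low genes. Replicates are separate animals.

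The 34 genes, the wider lists and the marker lists were chosen with earlier results of these data known. Named are all 34 by role, the genes called in a comparison (up to 10 by size) or the 3 of lowest p, the highest and lowest in a tissue, and up to 3 called rises and 3 called falls of the wider lists. Alternatives were a pseudocount of 0.1, no filter, a filter of 5 TPM, median ratio scaling (to the bulk of genes), array weights, a trended robust prior, a single fit of several groups, a replicate block and leaving out each library. Rescaling without germ cell transcripts was added after seeing the data. Tables were handled in Python 3.11.15 with pandas 2.3.3.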

Additional observations from a re-analysis of the deposited data

Results flagged for a closer look

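In groups of 4 to 10 libraries, a library that stood off from the rest of its group was looked for with Dixon's test in 56 group and list means, of which 9 passed, and in 272 gene and group pairs, of which 36 passed; chance gives about 1 in 20. All values are means of log2(TPM + 1).

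GF cauda replicate 4 stood above its group in the mean of the 34 genes (3.32), and in the means of the licensing and helicase genes (3.75), the mitotic entry genes (3.53), the chromosome and spindle genes (2.36) and the checkpoint genes (1.81). The comparisons do not use this library, and its mean of 3.32 was above the highest SPF cauda, at 2.92.

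GF caput replicate 2 stood above its group in the mean of the 34 genes (2.42), of the licensing and helicase genes (3.00) and of the exit genes (4.39). SPF set 2 caput replicate 4 stood above its group in the mean of the 34 genes (2.14).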

How the results depend on the processing

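Counts and medians below are over the cell proliferation genes, and the shares of all genes called under the alternatives are not given. Of the alternatives other than leaving out 1 library, 360 counts and 176 medians stayed close to the reported value, and 28 and 18 moved; leaving out 1 library kept 410 and 219 and moved 38 and 5. Of the called genes named, 1250 calls held and 49 were lost without 1 library, 1171 held and 19 were lost under other alternatives, and none turned direction. The causes were not tested, except that a filter of 5 TPM leaves fewer genes to test.

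With a pseudocount of 0.1 the median testis change in SPF was 3.49 against caput and 3.16 against cauda, and in SPF set 2 it was 3.36 and 2.95, with 2 genes lower in the last. With a filter of 5 TPM these medians were 3.47, 2.995, 3.16 and 2.88 and 0 genes were lower in any of the 4. With the same filter 1 gene was higher in cauda than caput in SPF and 2 in SPF set 2, 0 were lower in F1 caput and in recolonized GF testis, 0 were higher and 2 lower in SPF set 2 caput against SPF, and the median in Rag2-/- caput was -0.465, or -0.14 with no filter. With no filter 1 gene was lower in cauda than caput in SPF set 2.

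With median ratio scaling the testis medians against caput were 2.34 in SPF and 2.66 in SPF set 2, with 2 genes lower in each, and 2 and 3 were lower against cauda. The medians became 0.014 in GF testis, -0.048 in recolonized GF testis (0 genes lower), -0.25 in SPF set 2 testis and -0.40 in SPF set 2 caput (7 lower), and 2 genes were lower in F1 caput. Array weights gave 6 lower genes in Rag2-/- cauda, 3 in recolonized GF testis and 4 in SPF set 2 cauda against caput. A trended, robust prior gave 1 lower gene in Rag2-/- caput. A single fit of all groups of a tissue gave 6 lower genes in Rag2-/- cauda and 2 in F1 cauda, and a single fit of both control sets gave a testis median of 2.76 in SPF set 2 against caput and 2 genes lower in SPF cauda than caput.

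Without 1 library, the number of lower genes ran from 0 to 3 in GF cauda, 0 to 1 in F1 caput, 0 to 6 in Rag2-/- cauda, 0 to 3 in recolonized GF testis, 3 to 7 in SPF set 2 caput against SPF, 0 to 1 for SPF testis against cauda, 1 to 2 for SPF set 2 testis against caput and against cauda, 1 to 5 for SPF set 2 cauda against caput and 0 to 1 for the GF change in cauda minus that in caput. The number higher in SPF cauda against caput ran from 3 to 10. The medians ran from -0.305 to -0.135 in Rag2-/- caput, -0.28 to -0.12 in recolonized GF testis and 2.69 to 2.87 for SPF testis against caput.

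The deviations of same-numbered libraries had correlations of -0.53 to 0.27, above 0.1 for all pairs in no comparison with 3 or more pairs. In each contrast between tissues of SPF or SPF set 2 mice, replicate 1 correlated best with its own number. With so few pairs these correlations cannot exclude pairing, and the samples were not paired by number. With a replicate block, 0 genes were lower in F1 caput and in recolonized GF testis, and the median in Rag2-/- caput was -0.14. The depth of the libraries is unknown, so no interval for counting error can be given.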
